A study of Rattus norvegicus with 8 samples.

Results

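The genes described here are those that encode the proteasome. They were taken as every non-control probe whose gene name begins with Psm, then 1 letter from a to g, then a number, which gave 56 probes for 49 gene names among 21296 genes tested. Of the 49 names, 47 were assigned a role in the proteasome. The other two matched by name only: Psma3l, which RefSeq for GRCr8 lists as a synonym of Psma3, and Psmc3ip, a gene of homologous recombination that is no subunit. The 49 names thus stand for 48 genes under current symbols, and Psma3 enters the counts below under both names. Psmg3 was not among the matched names. The rule reads gene names and no expression value.

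The 26S proteasome is the large protease that degrades proteins tagged with ubiquitin. Its 20S core is a barrel of alpha rings, which gate the entry, around beta rings, which hold the catalytic sites, and the 19S regulatory particle on its ends binds, unfolds and strips ubiquitin from substrates. In cells exposed to interferon, and in immune cells including microglia, the inducible subunits Psmb8, Psmb9 and Psmb10 take the places of Psmb5, Psmb6 and Psmb7 and form the immunoproteasome, known for making peptides for MHC class I presentation. In neurons the proteasome is known for its part in synaptic plasticity and in clearing oxidised proteins.

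The study measured RNA of the hippocampus of male Sprague Dawley rats held in decompression chambers at a pressure altitude of 25000 ft, equivalent to 8% oxygen, and of rats kept in normoxia. There were 4 groups of 2 single-colour Agilent arrays: hypobaric hypoxia titled day 1, day 3 and day 7, and normoxia without exposure. The labels of the last hypoxia group disagree, with day 7 in its titles and 5 days as its exposure. All groups share the strain, the sex and the absence of any genetic change. Whether the arrays of a group stem from separate animals is not labelled, so every p-value covers just the spread of these arrays and that spread may be technical.

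The arrays differed in brightness and in cell markers. The 75th percentile of the processed signal ran from 2298 to 2329 on day 7 arrays, against 3494 to 4056 on normoxia arrays. Fewer probes lay well above background on day 7 arrays (72.6% to 77.0%) than on normoxia arrays (84.5% to 85.6%). All 10 genes of a hippocampal marker list were measured in the tissue labelled hippocampus, 3 of them not well above background on some array. Summed linear levels, in multiples of an array's 75th percentile, of 8 choroid plexus markers were 1.77 to 1.82 on day 1 arrays, 161 to 173 on day 3 arrays and 9.80 to 10.6 on day 7 arrays, against 120 to 130 on normoxia arrays. Those of 7 striatal markers were 28.4 on both day 1 arrays, 3.38 to 3.45 on day 3 arrays and 2.51 to 2.66 on day 7 arrays, against 3.49 to 3.58 on normoxia arrays. The summed level of 8 endothelial markers was 31.1 to 31.6 on day 1 arrays, 27.5 to 28.8 on day 3 arrays and at least 21.7 on both day 7 arrays, against 9.82 to 10.2 on normoxia arrays. A sum follows its brightest genes. As called below, 5 endothelial markers were higher and 0 lower on day 1, and 5 higher and 2 lower on day 3 and on day 7. Choroid plexus markers were all lower on day 1 and day 7, and 3 were higher and 3 lower on day 3. Striatal markers were all higher on day 1, and 1 was higher and 3 were lower on each later day. The shares of all genes called are given below. The part of brightness, dissection and cell composition in the changes below was not tested. In tissue RNA, fewer cells of a type and less RNA per cell cannot be told apart.

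Each level below is the log2 processed signal of a gene's probe minus the array's 75th percentile, so 0 is the 75th percentile. Levels of different probes are not comparable. A change is a difference of group means of these levels, and a gene was called where limma's Benjamini-Hochberg adjusted p over all 21296 genes was under 0.05. All 49 members passed the filter on dim probes, each with a probe well above background on all 8 arrays and with no saturated spot. The median absolute difference between the 2 arrays of a group over the members was 0.03 in normoxia and 0.04 to 0.05 on the hypoxia days.

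Several genes carried more than 1 probe, and the place of the probe in the gene moved with the measured change, so the probe sequences are shown before the values. The first set holds the probes of 3 lid subunits that fell and of the neighbouring inducible subunits Psmb8 and Psmb9. It also holds the upstream probes of the 3 genes whose probe pairs are compared below. All are 60 bases long, 5′ to 3′ on the strand of the gene, with rn4 coordinates from the scanner files. Exon annotation of that build was not used here.

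Psmd7, chr19:37452992-37453051, minus strand: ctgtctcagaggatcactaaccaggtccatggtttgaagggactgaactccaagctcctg
Psmd3, chr10:87466177-87466236, plus strand: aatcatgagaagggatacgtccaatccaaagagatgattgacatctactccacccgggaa
Psmd14, chr3:43696292-43699023, minus strand, spanning more genome than its length: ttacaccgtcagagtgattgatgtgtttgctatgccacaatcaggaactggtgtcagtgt
Psmb8, chr20:4787980-4788039, minus strand: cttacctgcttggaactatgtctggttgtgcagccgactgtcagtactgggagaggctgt
Psmb9, chr20:4806341-4806400, plus strand: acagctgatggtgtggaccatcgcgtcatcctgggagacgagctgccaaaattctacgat
Psmd9 upstream, chr12:34494493-34494552, plus strand: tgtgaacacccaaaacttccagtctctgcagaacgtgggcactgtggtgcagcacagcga
Psme4 upstream, chr14:111990483-111990542, plus strand: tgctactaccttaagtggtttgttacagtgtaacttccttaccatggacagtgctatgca
Psmf1 upstream, chr3:142069091-142069150, minus strand: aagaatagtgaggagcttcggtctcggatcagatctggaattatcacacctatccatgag

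The second set holds 30 bases of each downstream probe of those 3 genes and of the probes of Psmb10 and Psmg1, which rose. Capitals in Psmd9, Psmb10 and Psmg1 mark AATAAA or ATTAAA, the letters of the polyadenylation signal that lies just before the end of most mRNAs. These letters stood in the probe used for 9 of the 49 members, namely Psma3l, Psma8, Psmb1, Psmb10, Psmc2, Psmc6, Psmd2, Psmd9 and Psmg1, and in 12.9% of the probes used for all genes.

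Psmd9 downstream, bases 28 to 57 of chr12:34500670-34500729, plus strand: ggttgaggcattATTAAAaatgtggtttgt
Psme4 downstream, bases 31 to 60 of chr14:111997089-111997148, plus strand: gtagtacctaattgactttcaattgtgtaa
Psmf1 downstream, bases 31 to 60 of chr3:142058716-142058775, minus strand: ttggatgttattattaagaaccaaatgtca
Psmb10, bases 21 to 50 of chr19:35777711-35777770, minus strand: ggaacaagggtgAATAAAtccaggagatac
Psmg1, bases 31 to 60 of chr11:36283582-36283641, minus strand: gggatgttttgagggtAATAAAaaatttaa

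Taken over all members, the day 1 comparison with normoxia was mostly downward and the later comparisons were mixed. On day 1, 2 members rose and 22 fell, beside 15.3% of all genes higher and 20.2% lower (35.5% in either direction), and the median change of the members was -0.14 beside -0.07 over all genes. The 2 that rose, Psma3 (0.47) and Psme4 (0.14), each had another probe that did not rise. The probe named Psma3l, a synonym of Psma3, changed by -0.22 (limma adjusted p = 0.054, not called). The upstream probe of Psme4 changed by -0.03 and was not called. By day 3, 19 members had risen and 14 had fallen relative to normoxia (24.2% and 26.2% of all genes, 50.3% in either direction), with a median change of 0.07 beside -0.05. In the day 7 group 27 members were called higher and 11 lower (31.5% and 29.7% of all genes, 61.3% in either direction), with a median change of 0.23 beside -0.03. The 3 comparisons share the normoxia arrays. Leaving out 1 normoxia or day 1 array left 10 members lower on day 1, and leaving out 1 day 3 array left 13. Without normoxia replicate 1, normoxia replicate 2 or day 3 replicate 1, the day 3 count of higher members was 12, 11 or 11. Changes were small: no member was both called and at least 1.5-fold from normoxia on day 1 (3.82% of all genes higher and 5.31% lower), 4 were so on day 3, all of them lower (5.43% of all genes higher and 11.8% lower), and 12 on day 7, 7 higher (10% of all genes) and 5 lower (17.4%).

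**Figure D1:**
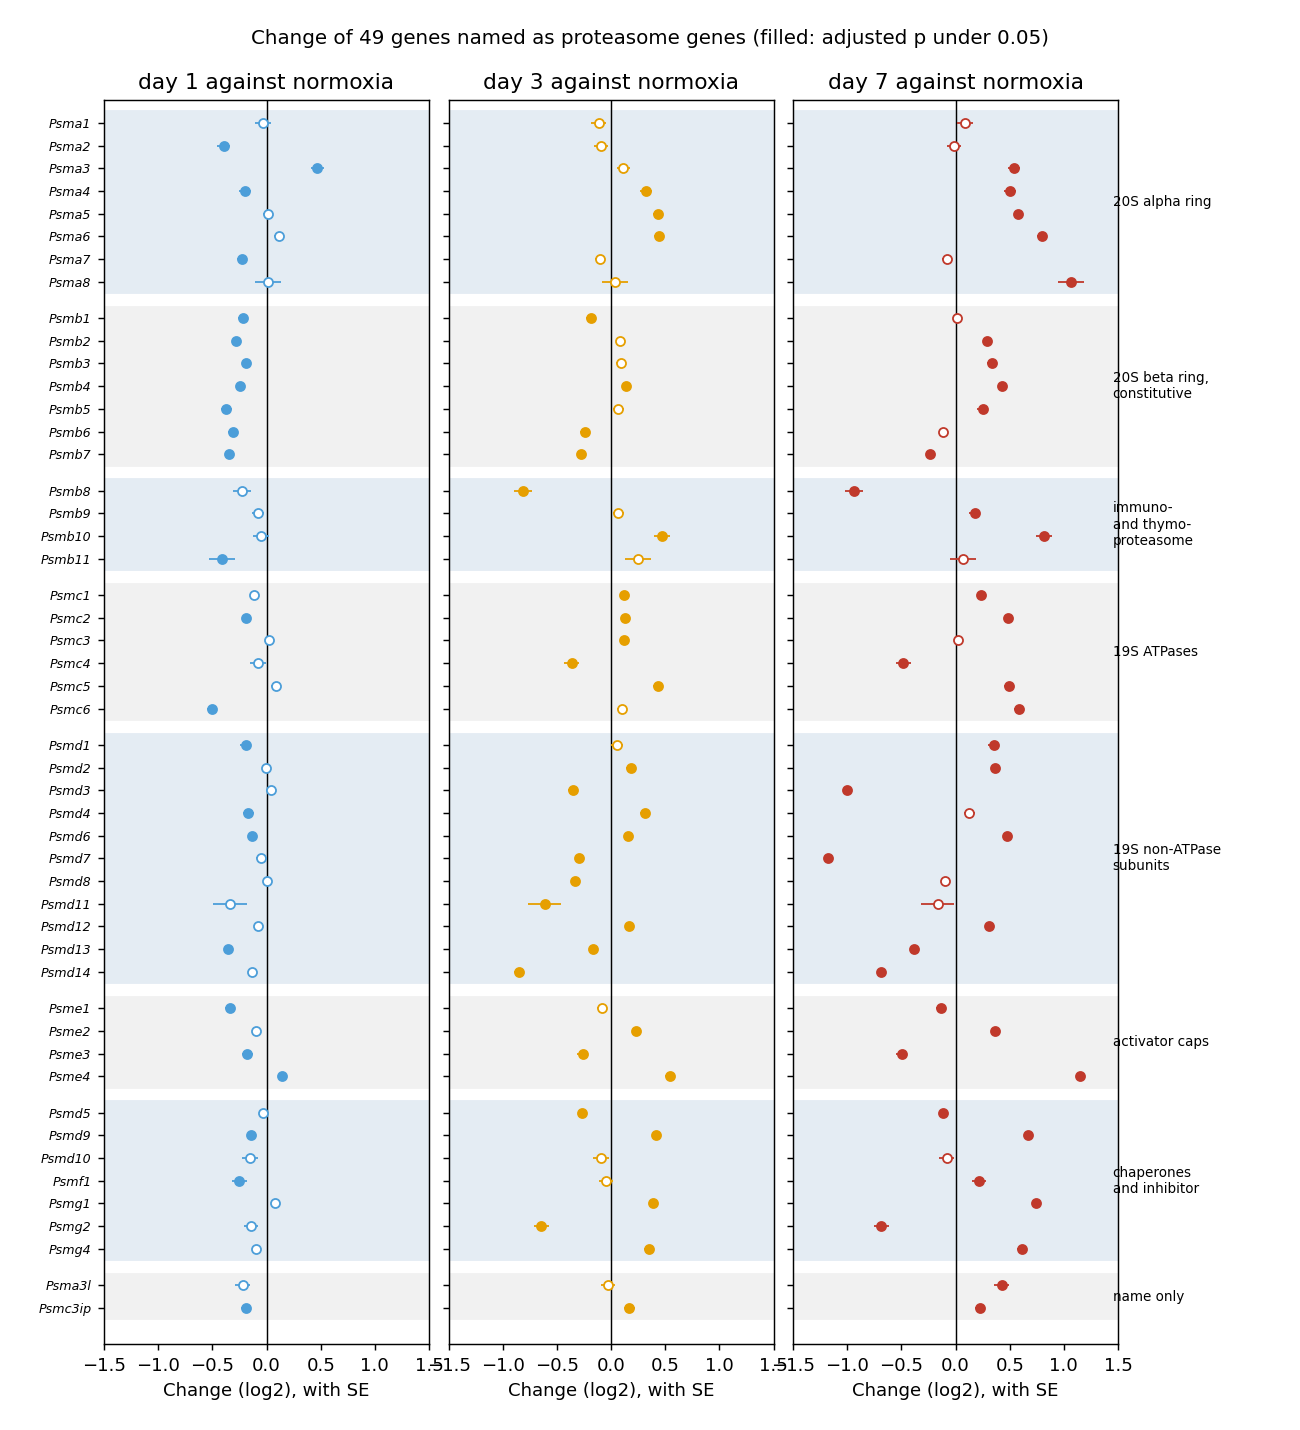
Change from normoxia (log2, horizontal axis, with the standard error from limma) of each of the 49 members on day 1, day 3 and day 7, grouped by role; filled points had an adjusted p under 0.05. All 7 constitutive beta subunits lie left of 0 on day 1, and on day 7 the members spread from -1.17 (Psmd7) to 1.15 (Psme4).

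The day 7 balance depended on how the arrays were scaled. With quantile normalization 15 members were called higher and 16 lower, and with each array's trend with signal level removed 16 and 18. Median centring, which places the median change of all genes at 0.26, gave 39 higher and 6 lower. The median change of the members on day 7 was 0.02 with quantile normalization, 0.02 with the level trend removed and 0.52 with median centring. The Spearman correlation of the day 7 change with the probe's mean level was 0.42 over the 47 members with a role and 0.43 over all genes, where all points share the same 8 arrays. Scalings that ended the call or turned the direction of a member named below are given beside many of them, not all. Genes outside the naming rule were read under the main scaling only.

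**Figure D2:**
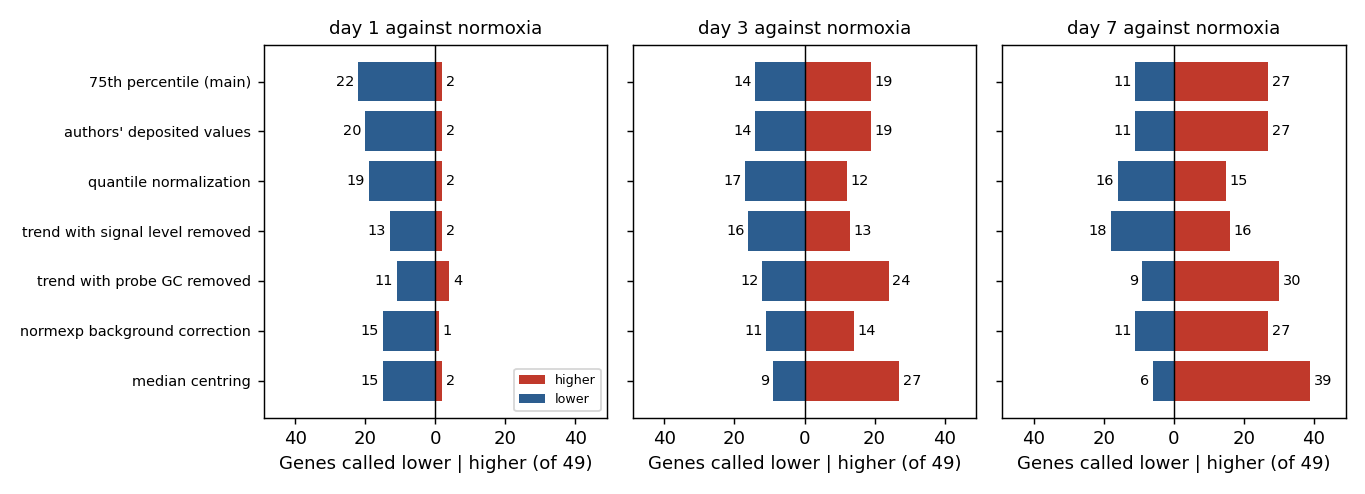
Number of members called higher (right of 0) and lower (left of 0) than in normoxia on each day, of 49, under 7 ways of scaling or correcting the arrays, which run down the page. On day 7 the split runs from 39 higher and 6 lower with median centring to 16 higher and 18 lower with the signal level trend removed; on day 1 the lower calls outnumber the higher under all 7.

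The alpha ring, whose subunits form the gate of the core, had a median change of 0.52 on day 7, the highest of the role groups. Of its 8 members 5 were called higher and none lower (31.5% and 29.7% of all genes). The median and the count include Psma8, whose rise was lost on averaging its probes (0.07). The rank therefore depends on how Psma8 is measured. With quantile normalization or with the level trend removed, 5 were higher and 2 lower. Psma6, a structural alpha subunit, stood at 4.40 and 4.41 (normoxia), 4.55 and 4.50 (day 1), 4.81 and 4.89 (day 3) and 5.22 and 5.19 (day 7). Levels of Psma6 on day 3 and on day 7 lay above both normoxia arrays by more than the arrays of a group differed. Its day 7 change was 0.80 ± 0.04 (SE), 1.74-fold, at a limma adjusted p of 0.000103, and stayed between 0.44 and 1.09 under every alternative.

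Psma8, an alpha subunit known mainly from the testis, was dim, at -5.19 and -5.14 (normoxia), -5.06 and -5.23 (day 1), -5.05 and -5.19 (day 3) and -3.95 and -4.25 (day 7). Both day 7 arrays stood above all others. Its change on day 7 was 1.06 ± 0.12 (SE), 2.09-fold, at a limma adjusted p of 0.000952, and rested on 1 spot of a probe with the polyadenylation letters. The other two Psma8 probes did not exceed background clearly on the day 7 arrays, and averaging the probes gave 0.07 with an adjusted p of 0.737. Of the remaining alpha subunits, Psma3, Psma4 and Psma5 rose on day 7 by 0.50 to 0.58, while Psma1, Psma2 and Psma7 had changes of 0.09, -0.01 and -0.08 and were not called.

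The 7 constitutive beta subunits all fell on day 1 (20.2% of all genes), with changes from -0.19 (Psmb3) to -0.37 (Psmb5) and a median of -0.28. Each of the 7 changes was negative under every alternative. All 7 were called with quantile normalization, median centring, the level trend removed and the authors' deposited values, 6 with the GC trend removed, with normexp background correction or in a fit of only the 2 groups, and 4 to 7 on leaving out 1 array. On day 7, 4 of the 7 were higher and 1 was lower than in normoxia (31.5% and 29.7% of all genes). With quantile normalization or with the level trend removed, however, none was higher and 3 were lower.

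The 3 constitutive catalytic subunits differed among themselves after day 1. Psmb5, the chymotrypsin-like subunit, stood at 3.24 and 3.31 (normoxia), 2.89 and 2.92 (day 1), 3.30 and 3.39 (day 3) and 3.51 and 3.54 (day 7). Both day 1 arrays lay below and both day 7 arrays above the normoxia arrays, while day 3 overlapped them. The changes of Psmb5 were -0.37 ± 0.05 on day 1 (SE, limma adjusted p = 0.00472) and 0.25 ± 0.05 on day 7 (adjusted p = 0.00831), and its day 7 change became -0.0043 with quantile normalization and -0.02 with the level trend removed.

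Psmb6, the caspase-like subunit, stood at 2.14 and 2.18 (normoxia), 1.88 and 1.83 (day 1), 1.96 and 1.88 (day 3) and 2.04 and 2.05 (day 7). All 6 hypoxia arrays were below both normoxia arrays, with changes of -0.31 on day 1 (limma adjusted p = 0.00518), -0.24 on day 3 (0.00715) and -0.11 on day 7 (0.0676), the last not called. The day 3 call of Psmb6 was lost with median centring, normexp background correction and the GC trend removed. Psmb7, the trypsin-like subunit, stood at 2.46 and 2.46 (normoxia), 2.13 and 2.09 (day 1), 2.19 and 2.18 (day 3) and 2.23 and 2.21 (day 7). It was lower on all 6 hypoxia arrays, by -0.35, -0.27 and -0.24 (limma adjusted p = 0.0017, 0.00206 and 0.00214). The day 7 fall of Psmb7 was not called with the GC trend removed and turned to 0.06 with median centring.

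Psmb4, a beta subunit without a catalytic site, stood at 4.22 and 4.17 (normoxia), 3.93 and 3.98 (day 1), 4.33 and 4.33 (day 3) and 4.64 and 4.61 (day 7). The 4 groups did not overlap. Its change was -0.24 on day 1, 0.14 on day 3 and 0.43 ± 0.04 (SE) on day 7, each called, the last at a limma adjusted p of 0.000458; the day 7 value was not called with quantile normalization (0.13) or with the level trend removed (0.10), and the day 3 value turned under both (-0.030 and -0.042). Among the other structural beta subunits Psmb2 and Psmb3 rose on day 7 by 0.29 and 0.33, calls that were lost under the same 2 settings, and Psmb1 had a change of 0.02 and was not called.

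The inducible catalytic subunits did not move together. On days 3 and 7 Psmb8 fell, Psmb10 rose and Psmb9 moved by at most 0.18, and on day 1 none of the 3 was called. Psmb8, which takes the place of Psmb5, stood at -2.59 and -2.56 (normoxia), -2.72 and -2.89 (day 1), -3.32 and -3.45 (day 3) and -3.58 and -3.45 (day 7). All hypoxia arrays lay below both normoxia arrays, and the day 3 and day 7 arrays lay below those of day 1. The change of Psmb8 was -0.23 ± 0.08 on day 1 (SE, limma adjusted p = 0.0973, not called), -0.81 ± 0.08 on day 3 (0.00127) and -0.94 ± 0.08 on day 7 (0.000447), or 1.91-fold lower on day 7. Its day 7 fall ran from -0.999 to -0.575 over all alternatives and was called in each.

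Psmb10, which takes the place of Psmb7, stood at 2.39 and 2.30 (normoxia), 2.33 and 2.26 (day 1), 2.77 and 2.86 (day 3) and 3.24 and 3.07 (day 7). Day 1 overlapped normoxia, and the day 3 and day 7 arrays lay above both. Its change was 0.47 ± 0.07 on day 3 (SE, limma adjusted p = 0.00482) and 0.82 ± 0.07 on day 7 (0.000458), 1.76-fold on day 7, and remained between 0.58 and 1.11 over all alternatives. Its probe holds the polyadenylation letters, and that of Psmb8 does not.

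Psmb9, which takes the place of Psmb6, stood at -0.96 and -0.83 (normoxia), -0.99 and -0.95 (day 1), -0.83 and -0.82 (day 3) and -0.71 and -0.72 (day 7). Both day 7 arrays were above both normoxia arrays, by a mean of 0.18 ± 0.05 (SE, limma adjusted p = 0.0313). The call was lost on leaving out any 1 array other than normoxia replicate 2, with changes of 0.11 to 0.18 (limma adjusted p 0.0554 to 0.0974), and in a fit of only the 2 groups (adjusted p = 0.103). Psmb11, the thymus form, was dim at -4.66 and -4.57 (normoxia), -4.89 and -5.17 (day 1), -4.31 and -4.42 (day 3) and -4.44 and -4.64 (day 7). Only its fall on day 1 was called (-0.42, limma adjusted p = 0.0484), and the call was lost with the authors' deposited values and with each of the other 5 ways of scaling.

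Setting each inducible subunit against its constitutive partner on the same array removes any constant offset of the array, though not a trend with signal level. Relative to the normoxia mean, the log2 difference of Psmb8 minus Psmb5 was 0.02 and -0.02 (normoxia), 0.25 and 0.04 (day 1), -0.77 and -0.99 (day 3) and -1.23 and -1.14 (day 7). The difference of Psmb10 minus Psmb7 was above normoxia on all 3 days, opposite in sign to the first pair on days 3 and 7, at 0.04 and -0.04 (normoxia), 0.31 and 0.28 (day 1), 0.70 and 0.79 (day 3) and 1.13 and 0.98 (day 7). For Psmb9 minus Psmb6 the values were -0.04 and 0.04 (normoxia), 0.18 and 0.27 (day 1), 0.27 and 0.35 (day 3) and 0.30 and 0.28 (day 7). With quantile normalization and with the level trend removed, the day 7 mean was -0.67 and -0.70 for Psmb8 minus Psmb5, and 1.03 under both for Psmb10 minus Psmb7. The comparisons of the 3 days share the 2 normoxia arrays, and 2 arrays against 2 allow no exact permutation p below 0.333.

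**Figure D3:**
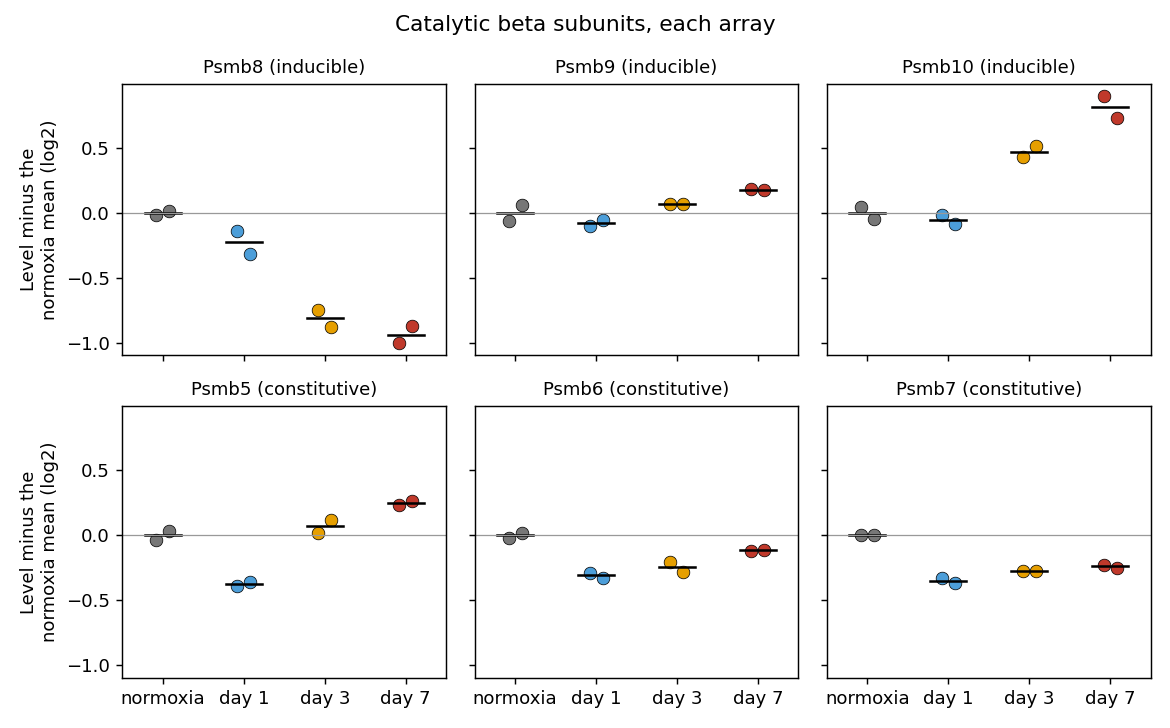
Level of 3 inducible and 3 constitutive catalytic beta subunits on each array, as the log2 level minus the mean of the 2 normoxia arrays (vertical axis), for normoxia, day 1, day 3 and day 7; points are arrays and bars the group means. Psmb8 falls by 0.94 and Psmb10 rises by 0.82 on day 7, and Psmb5, Psmb6 and Psmb7 are all lower on day 1.

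The promoters of Psmb8 and Psmb10 are printed because the pair moved in opposite directions while both promoters hold GAAA, then any 2 bases, then GAAA again, a repeat recognised by interferon regulatory factors. Shown are 250 bases before and 20 after the gene start, from RefSeq's GRCr8 table, 5′ to 3′ on the gene's strand, with the match on either strand in capitals. In Psmb8 the match begins 4 bases before the gene start, and in Psmb10 the matches begin 73 and 17 bases before it.

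Psmb8, chr20:4657012-4657281, minus strand: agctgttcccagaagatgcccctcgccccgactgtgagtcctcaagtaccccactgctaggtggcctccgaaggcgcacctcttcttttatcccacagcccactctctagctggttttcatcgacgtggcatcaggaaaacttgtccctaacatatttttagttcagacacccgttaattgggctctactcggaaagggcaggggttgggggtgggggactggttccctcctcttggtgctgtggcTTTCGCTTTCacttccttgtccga
Psmb10, chr19:50743273-50743542, minus strand: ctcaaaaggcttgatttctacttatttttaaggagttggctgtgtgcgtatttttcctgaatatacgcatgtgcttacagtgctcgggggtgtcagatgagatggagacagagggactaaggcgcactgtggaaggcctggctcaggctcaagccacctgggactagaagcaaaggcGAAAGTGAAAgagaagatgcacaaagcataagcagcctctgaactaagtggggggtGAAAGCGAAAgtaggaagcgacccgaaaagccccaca

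Of the 47 members with a role, 42 matched a promoter in that table by symbol. In windows of 300 bases, the GAAA repeat stood on either strand in 7 of the 42 (16.7%), beside 3.92% of all 33469 promoters: Psma4, Psmb3, Psmb8, Psmb10, Psmd7, Psme2 and Psmg4. These 7 genes went both ways on day 7, with Psmb8 and Psmd7 lower and the other 5 higher than in normoxia. TGACNNNGC, the letters bound by Nfe2l1 and Nfe2l2, stood in 8 of the 42 (19%), beside 12.1% of all promoters, and CCAAT in 20 (47.6%), beside 37.5%. Members were counted once per gene symbol and the background once per promoter, so these shares are of unlike units. All 3 motifs were searched on both strands, the fixed letters of none contain those of another, and a match describes the sequence only.

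The 19S particle holds ATPases, which unfold the substrate, and non-ATPase subunits, which bind and deubiquitinate it. The ATPases had 4 of 6 members higher and 1 lower on day 7, with a median change of 0.36, which became 0.0039 with quantile normalization. The non-ATPase subunits had 4 of 11 higher and 4 lower, with a median of -0.10, or -0.12 with quantile normalization. Of all genes, 31.5% were higher and 29.7% lower on day 7. A difference between these groups was not tested.

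Psmc6, an ATPase of the base, stood at 1.82 and 1.78 (normoxia), 1.33 and 1.27 (day 1), 1.87 and 1.93 (day 3) and 2.37 and 2.40 (day 7). It was lowest on both day 1 arrays and highest on both day 7 arrays, with changes of -0.50 ± 0.04 on day 1 (SE, limma adjusted p = 0.00124) and 0.58 ± 0.04 on day 7 (0.00024). Its day 1 fall was the largest of any member on that day.

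Psmc5, another ATPase, stood at 5.45 and 5.47 (normoxia), 5.57 and 5.53 (day 1), 5.86 and 5.92 (day 3) and 5.91 and 5.98 (day 7). The day 3 and day 7 arrays overlapped each other and lay above normoxia. Its day 7 change of 0.49 ± 0.04 (SE, limma adjusted p = 0.000431) became 0.02 with quantile normalization and 0.08 with the level trend removed, neither called. Psmc1 and Psmc2 rose on day 7 by 0.24 and 0.48, values that quantile normalization left at -0.015 and 0.10, neither called. With the level trend removed Psmc1 also turned, to -0.016. Psmc3 had a change of 0.02 and was not called, and Psmc4 fell by 0.48, which median centring reduced to a fall by 0.19 that was not called.

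Psmd7 and Psmd3, both subunits of the lid, had the largest falls among the probes used for each gene. Psmd7, which pairs with the deubiquitinase Psmd14, stood at 2.17 and 2.23 (normoxia), 2.16 and 2.13 (day 1), 1.92 and 1.89 (day 3) and 1.06 and 0.99 (day 7). The day 7 arrays lay far below all others. Its changes were -0.29 ± 0.04 on day 3 (SE, limma adjusted p = 0.00374) and -1.17 ± 0.04 on day 7 (4.69e-05), 2.25-fold lower on day 7, and -1.36 to -0.88 over all alternatives.

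Psmd3 stood at 1.67 and 1.69 (normoxia), 1.68 and 1.75 (day 1), 1.32 and 1.32 (day 3) and 0.67 and 0.68 (day 7). Day 1 overlapped normoxia, day 3 lay below both and day 7 lowest. The changes of Psmd3 were -0.35 ± 0.04 on day 3 (SE, limma adjusted p = 0.00155) and -0.997 ± 0.04 on day 7 (5.11e-05). Psmd14, singled out after its values were seen as the catalytic deubiquitinase of the lid, fell by 0.85 on day 3 (limma adjusted p = 0.000174) and by 0.69 on day 7 (0.000124). Psmd13, another lid subunit, fell on all 3 days (-0.35, -0.17 and -0.39), and the last 2 calls were lost with median centring.

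Psmd1 and Psmd2, the large scaffold subunits of the base, rose on day 7 by 0.35 and 0.37. Psmd6 and Psmd12, lid subunits, rose by 0.48 and 0.31. The calls of Psmd1, Psmd2 and Psmd12 were lost with quantile normalization and with the level trend removed, where Psmd1 turned to -0.026. Psmd4, a ubiquitin receptor, Psmd8 and Psmd11 had day 7 changes of 0.13, -0.10 and -0.16 and were not called.

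The activator caps, which open the core without the 19S particle, split in pairs. Psme1 and Psme2, the subunits of the interferon-inducible cap, did not move together: on day 7 Psme2 rose by 0.37 (limma adjusted p = 0.000853) while Psme1 stood at -0.14 (0.0466). Psme1 levels were 2.59 and 2.64 (normoxia), 2.28 and 2.26 (day 1), 2.52 and 2.53 (day 3) and 2.43 and 2.52 (day 7). All hypoxia arrays were below both normoxia arrays, and the day 1 fall of Psme1 was -0.34 (limma adjusted p = 0.00448). Its day 7 call was lost in 11 alternatives, and the sign turned with median centring (0.16) and with the GC trend removed (0.01).

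Psme2 levels were 2.98 and 3.01 (normoxia), 2.88 and 2.92 (day 1), 3.26 and 3.19 (day 3) and 3.37 and 3.35 (day 7). The day 3 and day 7 arrays stood above normoxia, and the day 7 rise was not called with quantile normalization or with the level trend removed. Psme3, which forms a nuclear cap, was at -1.24 and -1.15 (normoxia), -1.39 and -1.35 (day 1), -1.44 and -1.48 (day 3) and -1.66 and -1.72 (day 7). It lay lower on every hypoxia array, and its changes of -0.18, -0.26 and -0.50 were each called (limma adjusted p = 0.0403, 0.00807 and 0.000565). The day 1 call of Psme3 was lost on leaving out any 1 normoxia, day 1 or day 3 array, with the authors' deposited values and with the GC or level trend removed.

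Psme4, the single-chain cap known for acetylated histones, showed the largest rise of any member on its downstream probe. That probe was at -0.13 and -0.15 (normoxia), 0.0042 and 0.0028 (day 1), 0.44 and 0.36 (day 3) and 0.99 and 1.02 (day 7). The 4 groups did not overlap, and the day 7 change was 1.15 ± 0.04 (SE, limma adjusted p = 4.28e-05). The upstream probe of Psme4, 6606 bases away, was at -1.40 and -1.30 (normoxia), -1.35 and -1.41 (day 1), -1.19 and -1.25 (day 3) and -1.51 and -1.57 (day 7). There the day 7 arrays were the lowest of all, with a change of -0.19 (limma adjusted p = 0.0321 over all probes), so the direction depended on the probe.

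Among the assembly chaperones and the inhibitor 4 of 7 rose and 2 fell on day 7 (31.5% and 29.7% of all genes). Psmg1 and Psmg2, which act as a pair in assembling the alpha ring, went in opposite directions. Psmg1 stood at 3.29 and 3.24 (normoxia), 3.33 and 3.36 (day 1), 3.64 and 3.66 (day 3) and 4.02 and 3.99 (day 7). Psmg2 stood at -0.92 and -0.91 (normoxia), -1.03 and -1.08 (day 1), -1.59 and -1.52 (day 3) and -1.51 and -1.68 (day 7). Both genes left the normoxia range by day 3, Psmg1 upward and Psmg2 downward. On day 7 the change of Psmg1 was 0.74 ± 0.04 (SE, limma adjusted p = 8.54e-05) and that of Psmg2 -0.68 ± 0.07 (0.000581). The probe of Psmg1 holds the polyadenylation letters, and that of Psmg2 does not. Psmg4, a chaperone of the same step, rose by 0.61, and its 2 probes, 46 bases apart, gave 0.61 and 0.41.

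Psmd9, Psmd5 and Psmd10 help to assemble the 19S base, and Psmf1 is an inhibitor of the core. The downstream probe of Psmd9 was at 1.24 and 1.31 (normoxia), 1.13 and 1.14 (day 1), 1.68 and 1.71 (day 3) and 1.96 and 1.93 (day 7), a rise of 0.67 on day 7 (limma adjusted p = 0.000124). Its upstream probe was at -0.19 and -0.15 (normoxia), -0.25 and -0.21 (day 1), -0.35 and -0.32 (day 3) and -0.68 and -0.64 (day 7), a fall by 0.49 (limma adjusted p = 0.00031 over all probes). Both probes of Psmd9 thus left the normoxia range, in opposite directions. Psmd5 fell by 0.12 on day 7, a change that turned to 0.18 with median centring and lost its call in 8 of 20 alternatives. Psmd10 had a change of -0.08 and was not called.

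Psmf1 gave the widest split. Its downstream probe was at 1.21 and 1.17 (normoxia), 0.92 and 0.95 (day 1), 1.16 and 1.13 (day 3) and 1.49 and 1.31 (day 7), and its upstream probe, 10375 bases away, was at -0.74 and -0.77 (normoxia), -0.89 and -0.84 (day 1), -1.60 and -1.73 (day 3) and -1.94 and -2.13 (day 7). The day 7 changes were 0.22 (limma adjusted p = 0.036 over all probes) downstream and -1.28 (0.00015) upstream. Of 20 alternatives, 12 ended the call of the downstream change. The downstream call was lost on leaving out any 1 array but day 7 replicate 2, while averaging both probes gave -0.53 (adjusted p = 0.002).

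**Figure D4:**
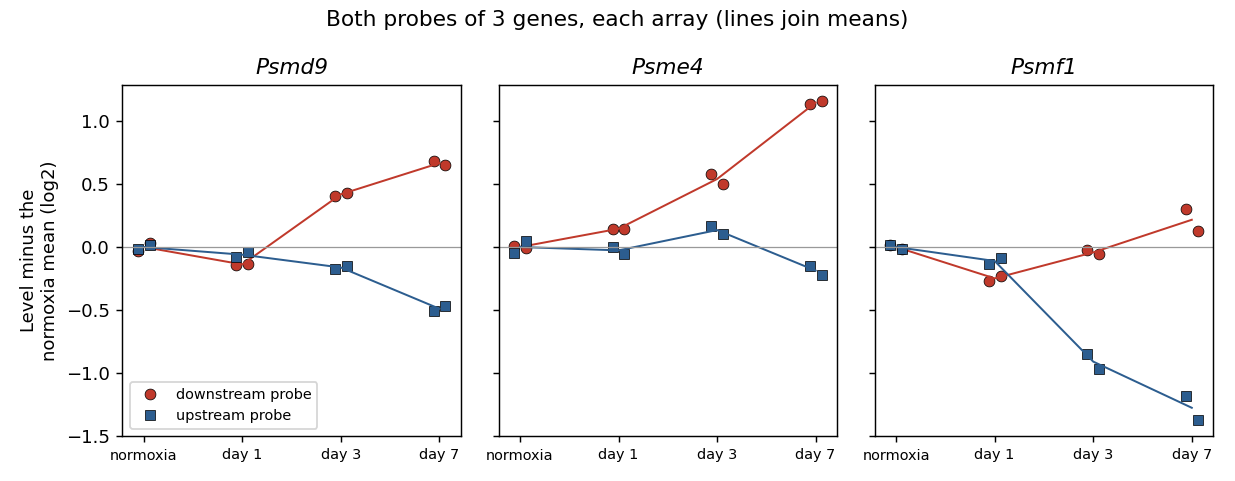
Level on each array of the downstream and the upstream probe of Psmd9, Psme4 and Psmf1, as the log2 level minus that probe's normoxia mean (vertical axis), for normoxia, day 1, day 3 and day 7; lines join group means. The 2 probes of a gene lie close on day 1 and on day 7 are apart by 1.16 (Psmd9), 1.33 (Psme4) and 1.49 (Psmf1).

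The split between probes was tested directly, as the within-array difference of the downstream minus the upstream probe, in 1 limma fit over 1921 genes with such a pair 200 to 200000 bases apart and well above background on all arrays. On day 7 the difference of changes was 1.16 ± 0.06 for Psmd9, 1.33 ± 0.07 for Psme4 and 1.49 ± 0.06 for Psmf1 (SE, limma adjusted p = 1.77e-05, 1.87e-05 and 1.13e-05). On day 3 it was 0.58, 0.41 and 0.87, each called, and on day 1 it was -0.08, 0.17 and -0.14, none called. On day 7, 71.4% of the 1921 genes were called, so the calls of these 3 set them apart from few other genes. Pairs were formed by name, so the probes named Psma3 and Psma3l were not compared in this fit. Both lie on the plus strand of chromosome 6, Psma3l upstream (start 93111009 against 93112068), and the polyadenylation letters stand in the upstream probe. Changes of Psma3 and Psma3l were 0.47 and -0.22 on day 1, and 0.54 and 0.43 on day 7. That pair was thus further apart on day 1 than on day 7.

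Across the 1921 genes the downstream probe had the higher change in 47.1% on day 1, 75.2% on day 3 and 79.3% on day 7, and the median difference was -0.03, 0.26 and 0.47. Probes with the polyadenylation letters followed the same order: the 9 members whose probe holds them had a median day 7 change of 0.58 with 8 called higher and none lower, beside 0.11 over the other 40 members, of which 19 were higher and 11 lower. Over all genes the day 7 medians were 0.29 with the letters and -0.09 without, and on day 1 they were -0.05 and -0.07. On day 1 the medians of the members were -0.14 with the letters and -0.15 without. Per the labels, cDNA was primed with oligo dT. The part of probe position in the day 3 and day 7 changes of members with a single probe was not tested.

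**Figure D5:**
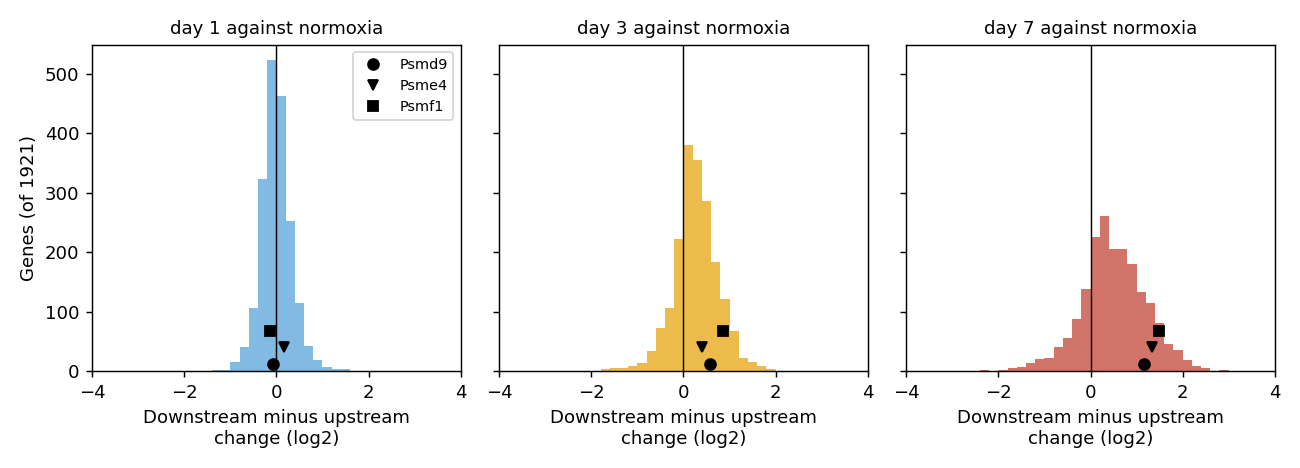
Histogram over 1921 genes of the change from normoxia (log2) of the most downstream probe minus that of the most upstream probe, for day 1, day 3 and day 7; the vertical axis counts genes, and symbols mark Psmd9, Psme4 and Psmf1 at an arbitrary height. The bulk of genes is centred near 0 on day 1 (median -0.03) and right of 0 on day 7 (median 0.47), with the 3 members on the right side on day 7.

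Between the hypoxia days, 28 members were higher and 9 lower on day 3 against day 1 (28.2% and 23% of all genes, 51.2% in either direction), and 27 were higher and 5 lower on day 7 against day 3 (24.2% and 18.3%, 42.4% in either direction). Without day 3 replicate 1 the day 7 against day 3 counts were 17 and 3. In the beta ring 4 of 7 were higher on day 3 than on day 1 and 5 of 7 higher on day 7 than on day 3, with none lower in either. Psmd7 and Psmd3 had the largest falls between day 3 and day 7, at -0.88 and -0.64, while the difference of Psmb8 was not called (-0.12 ± 0.08, SE, limma adjusted p = 0.295).

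Genes that act with the proteasome were read from lists outside the naming rule, under the main scaling only. Whether their calls hold under the other settings was not tested. Of 16 measured accessory genes, 9 were higher and 4 lower on day 7 (31.5% and 29.7% of all genes). Their changes ran from -1.64 to 0.70. Called and at least 1.5-fold were 2 higher and 3 lower (10% and 17.4% of all genes). Pomp, the maturation factor of the core, had a change of -0.36 on day 1 and 0.64 on day 7, both called, and Usp14, a deubiquitinase of the 19S particle, rose by 0.70. Of 6 genes that supply or activate ubiquitin, 4 rose and none fell on day 7, among them Uba6, a ubiquitin-activating enzyme, by 0.46 and Rps27a, which encodes ubiquitin fused to a ribosomal protein, by 0.47.

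Nfe2l1, the transcription factor known to raise proteasome genes when the proteasome is impaired, had a change of -0.24 on day 3 (limma adjusted p = 0.0118) and was not called on day 1 or on day 7 (-0.08, adjusted p = 0.211). Ngly1, which processes Nfe2l1, rose by 0.67 on day 7, and Vcp, which extracts it from the membrane, fell by 0.22. Over the 9 measured genes of this list 3 were higher and 3 lower on day 7, with changes from -1.12 to 0.67.

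The MHC class I path that uses proteasome products had 8 of 16 genes higher and 2 lower on day 1, 1 higher and 8 lower on day 3, and 5 higher and 9 lower on day 7. The shares of all genes called higher and lower were 15.3% and 20.2% (day 1), 24.2% and 26.2% (day 3) and 31.5% and 29.7% (day 7). Tap1 and Tap2, the peptide transporter genes beside Psmb8 and Psmb9 on chromosome 20, differed on day 7, when Tap1 fell by 1.33 and Tap2 rose by 0.28. The class I genes RT1-A2 and RT1-CE3 fell by 1.31 and 1.55, B2m rose by 0.34, and the interferon regulatory factor Irf1 rose by 0.56. Class I genes share near-identical sequence, so their probes may not tell them apart. Of 11 microglial markers, 3 were higher and 6 lower on day 7, and their summed linear level was 23.4 to 25.3 on day 7 arrays, against 21.8 to 22.4 on normoxia arrays. Of 7 T and NK cell markers none was higher and 2 were lower on day 7, with 5 of the 7 not well above background on some array, and of 5 markers of B cells and other leukocytes 2 were higher and 1 was lower. All 8 red blood cell markers were higher on day 7, with summed levels of 550 to 563 on day 7 arrays, against 164 to 180 on normoxia arrays. The part of microglia, leukocytes and blood in the changes of the inducible subunits was not tested.

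Over the 4 group means the genes most like Psmb8 by Pearson correlation were Ube2d4, Per3, Elovl3, Fut9, Pdxk, Hspb7, Telo2, Cnep1r1, Tlr4 and Tirap. With 4 means such likeness is common, and 312 genes exceeded a correlation of 0.99.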

How the data were processed

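Total RNA (500 ng per sample) was labelled with Cy3 after oligo dT priming, per the labels' protocols. The deposited scanner files hold, per the file headers, the processed signal intensity of each spot (Feature Extraction 11.5.1.1, background removed, arrays unscaled), with mean and background intensity. The series' deposited values are log2 intensities whose scaling is not given in the sources used here; after 1 constant per array, 96.7% to 97.4% lay within 0.05 of the log2 processed signal.

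Control and outlier spots were left out, spots of a probe averaged on the log2 scale, and the array's 75th percentile subtracted. A probe was kept if some group had it clearly over background on each of its arrays (24678 probes), and the brightest kept probe stood for its gene. One limma model (R 4.3.3, limma 3.58.1) with a mean per group was fitted over 21296 genes with Benjamini-Hochberg adjustment. The script was tested on simulated data. All arrays lay on 1 slide in 1 scan. Row 1 held normoxia and day 1, and row 2 held day 3 and day 7. Row and group thus cannot be told apart for day 3 or day 7 against normoxia, or for day 3 against day 1. Each row kept its groups in separate columns, and only day 3 and normoxia were compared within the same columns. For the other comparisons, among them day 1 against normoxia and day 7 against day 3, column and group cannot be told apart. The number of arrays limits the precision. Arrays of one number in different groups did not deviate together (correlations -0.15 to 0.05) and were not paired. Gene lists were of roles in the proteasome, accessory, ubiquitin, regulatory and MHC class I genes, and cell markers. The members and lists were chosen with earlier results of these data known. Values per array are given for the catalytic subunits, Psmb11, Psme1, Psme2 and the 2 members of each role with the largest change. Fits of single probes and of probe pairs, and the GC and level trends, were added after the data were seen. Figures were drawn with matplotlib 3.10.9. Some genes of these lists are not reported here by name.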

Additional observations from a re-analysis of the deposited data

Results flagged for a closer look

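In 7 members the change from normoxia was called in opposite directions on day 1 and day 3, and the difference between the days was itself called. All 7 were lower than in normoxia on day 1 and higher on day 3. The share of all genes that meet this rule was not computed, so whether 7 of 49 is unusual cannot be told. Of all genes, 35.5% were called on day 1, 50.3% on day 3 and 51.2% for day 3 against day 1. The difference of day 3 minus day 1 was 0.56 for Psmd9, 0.52 for Psma4, 0.48 for Psmd4, 0.38 for Psmb4, 0.36 for Psmc3ip, 0.33 for Psmc2 and 0.29 for Psmd6 (log2, limma adjusted p from 0.000387 to 0.00263). The day 1 changes of these genes ran from -0.24 to -0.13 and the day 3 changes from 0.13 to 0.42. Over 20 alternatives the day 1 call was lost in 16 for Psmd4, Psmd6 and Psmd9, in 12 for Psma4 and Psmc3ip, in 2 for Psmc2 and in 1 for Psmb4. The day 3 call was lost in 10 for Psmb4, in 7 for Psmc2 and Psmc3ip and in 5 for Psmd6, and its sign turned in 2 for Psmb4 and Psmc2 and in 1 for Psmd6. The call of the difference was lost in 1 alternative for Psmc2 and Psmd6. The upstream probe of Psmd9 was not called on day 1 (-0.06) and was lower on day 3 (-0.16).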

How the results depend on the processing

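Values of single members were compared under the planned settings and with the GC or level trend removed. Of 5145 such values, 4363 kept direction and side of the threshold, 623 lost the call, 133 gained it and 26 turned. Of the 623, 141 were lost to the 1.5-fold threshold alone. The upstream probes, given below, are outside these totals. The cause of the lost calls and turns was not tested. The count of members called higher on day 1 (2) was 1 with normexp, no filter, the mean of a gene's probes, the replicate block or only the groups compared, 4 with the GC trend removed and 0 at 1.5-fold; the count lower (22) was 13 with no filter, 11 with the GC trend, 13 with the level trend and 0 at 1.5-fold. Leaving out 1 array gave 1 to 2 higher and 10 to 18 lower, 10 without either day 1 or either normoxia array and 13 without either day 3 array. On day 3, quantile normalization and the fit of only the groups compared gave 12 higher, median centring 9 lower, and a fold of 1.5 gave 0 higher and 4 lower; leaving out 1 array gave 11 to 19 higher, with 12 and 11 without a normoxia array and 11 without day 3 replicate 1, and 10 to 14 lower. On day 7, the higher count was 15 (quantile), 16 (level trend) and 7 (1.5-fold), and the lower count 6 (median centring), 18 (level trend) and 5 (1.5-fold); leaving out 1 array gave 25 to 26 and 9 to 10. For day 3 against day 1, 17 were higher with the level trend, and 2 higher and 1 lower at 1.5-fold; leaving out 1 array gave 24 to 29 and 8 to 9. For day 7 against day 3, the higher count was 13 (quantile), 17 (normexp), 15 (only the groups compared), 13 (level trend) and 2 (1.5-fold), and the lower count 2 (median centring), 3 (normexp), 2 (only the groups compared) and 2 (1.5-fold); leaving out 1 array gave 17 to 24 and 3 to 5, the lowest without day 3 replicate 1. The replicate numbers share only a number, and the replicate block gave 1 higher and 18 lower on day 1, 15 and 14 on day 3, 28 and 10 on day 7, 28 and 9 for day 3 against day 1, and 24 and 5 for day 7 against day 3.

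Turned values with quantile normalization were, for day 3, Psmb4 -0.030, Psmc2 -0.071 and Psmd2 -0.019; for day 7, Psmb5 -0.0043 and Psmc1 -0.015; for day 3 against day 1, Psmd1 -0.021; and for day 7 against day 3, Psmc1 -0.031 and Psme2 -0.0054. With the level trend removed they were, for day 3, Psmb4 -0.042, Psmc1 -0.0049, Psmc2 -0.068, Psmd2 -0.015 and Psmd6 -0.016; for day 7, Psmb5 -0.016, Psmc1 -0.016 and Psmd1 -0.026; for day 3 against day 1, Psmd2 -0.017; and for day 7 against day 3, Psmc1 -0.011. Median centring turned Psmb7 (0.057), Psmd5 (0.18) and Psme1 (0.16) on day 7, and the GC trend turned Psme1 (0.013). The mean of a gene's probes turned Psmf1 on day 7 (-0.53), day 3 against day 1 (-0.30) and day 7 against day 3 (-0.054), and Psmd9 for day 7 against day 3 (-0.040). The upstream probe alone turned Psmd9 (-0.16 on day 3, -0.49 on day 7, -0.10 for day 3 against day 1, -0.33 for day 7 against day 3), Psme4 (-0.027 on day 1, -0.19 on day 7, -0.32 for day 7 against day 3) and Psmf1 (-1.28 on day 7, -0.80 for day 3 against day 1, -0.37 for day 7 against day 3).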
